A study of Arabidopsis thaliana with 8 samples.

Results

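The PYR/PYL genes of Arabidopsis thaliana encode the soluble receptors of abscisic acid (ABA), the hormone that plants accumulate under drought and salt stress. The genes described here are PYR1 (AT4G17870), PYL1 (AT5G46790), PYL2 (AT2G26040), PYL3 (AT1G73000), PYL4 (AT2G38310), PYL5 (AT5G05440), PYL6 (AT2G40330), PYL7 (AT4G01026), PYL8 (AT5G53160) and PYL9 (AT1G01360). Every probe whose transcript accession belonged to 1 of these locus tags was taken, and the rule uses no measured value, although the family was picked with earlier results of these data known. The 10 genes had 14 probes, out of 43603 gene probes on the array and 25427 locus tags with a probe.

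In the absence of ABA, clade A protein phosphatases (PP2C) hold the SnRK2 kinases inactive. A receptor that has bound ABA docks onto a PP2C and blocks it, the kinases become active, and they phosphorylate bZIP factors of group A (ABF1 to ABF4 and ABI5), which switch on ABA-induced genes. The receptors fall into subfamilies by sequence. PYR1 and PYL1 to PYL3 form subfamily III, whose proteins are dimers before ABA binds. PYL4 to PYL6 belong to subfamily II and PYL7 to PYL9 to subfamily I, and the proteins of these last subfamilies are mostly monomers. The question addressed here is how ABA feeds back on the transcript of each receptor, in wild type and in plants that overexpress ThbZIP1, a bZIP factor of the salt-tolerant shrub Tamarix hispida.

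The comparison covered 4 groups of 2 arrays each: Columbia wild type (WT) and ThbZIP1-overexpression plants (OE, T3 homozygous lines), each given water or 10 µM ABA for 3 h at an age of 4 weeks. Whole seedlings, roots included, were pooled for each sample, and different plants were used for the 2 independent experiments of a group. The promoter of the transgene and the number of lines are not stated in the sources used here, and since ThbZIP1 is no Arabidopsis gene, its level was not checked on the arrays. Each array gives 1-colour signals, expressed below as normalized log2 signals, that is, the log2 processed signal minus the 75th percentile of its own array, so that 0 is the level of a bright probe. Levels are compared between groups for the same probe only, because probes differ in brightness. A free-text field of the labels names another gene and treatment for some samples. It was not used, and groups follow the titles, source names and characteristics.

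Between 68.1% and 72.1% of the gene probes were well above background on an array, no spot was saturated, and the 2 arrays of a group correlated across probes with r between 0.971 and 0.985. All OE arrays were on 1 slide and were scanned on a different day from the WT arrays, with another version of the array design file. A difference between OE and WT can therefore not be told apart from slide, scan day or design version. Within WT, the water arrays shared a slide and each ABA array was on a slide of its own, so ABA cannot be told apart from slide there either. Within OE, water and ABA arrays shared 1 slide. The green tissue genes RBCS1A, LHCB1.3 and PSAD-1 were well above background on all arrays, with summed levels between 9.03 and 9.41, while of the root genes PYK10, CASP1, COBL9, EXPA7 and IRT1 only PYK10 and CASP1 were well above background throughout.

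Of the 10 receptor genes, 9 were tested. PYL3 was not well above background on any array, with values from -8.99 to -7.11, and no fold is given for it. PYL2 was well above background on 7 arrays and PYL6 on 5, and the other genes on all 8. In what follows, "called" means a change of at least 2-fold whose limma p-value stayed under 0.05 after adjustment (Benjamini-Hochberg) over the 31267 tested probes.

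**Figure D1:**
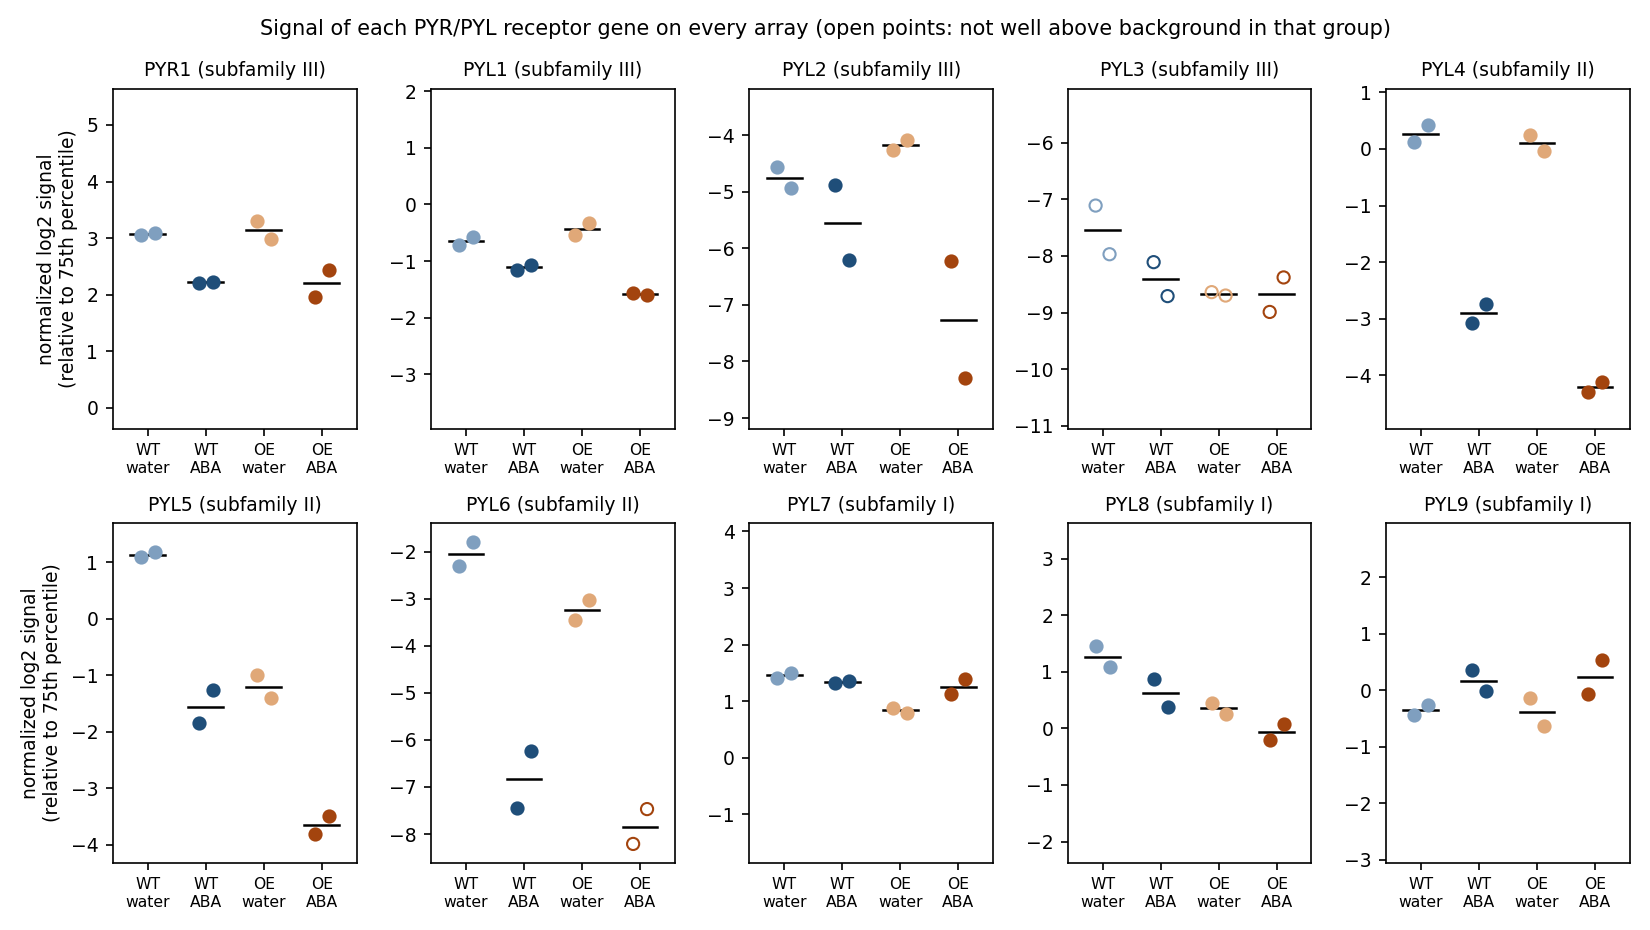
Normalized log2 signal (vertical axis, relative to the 75th percentile of the array) of each receptor gene in the 4 groups (horizontal axis), with 1 point per array and a line at the group mean. PYL4, PYL5 and PYL6 lie far lower under ABA in both genotypes, PYL5 is also lower in OE than in WT, and open points mark groups not well above background on either array.

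The most marked change with ABA was the fall of PYL4, PYL5 and PYL6 of subfamily II. In WT, PYL4 fell 9.03-fold and PYL5 6.43-fold after 3 h of ABA, PYL6 was called lower with 1 of its 2 ABA arrays well above background, and all 3 genes were also called lower in OE. No other receptor was called in WT, and in OE only PYL1 of subfamily III was called in addition, at 2.21-fold. No receptor was called higher with ABA in either genotype. Because the RNA came from whole seedlings, fewer cells that make a transcript and less of it per cell cannot be told apart.

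PYL4, which has been linked in Arabidopsis to the crosstalk of ABA and jasmonate, gave 0.13 and 0.42 on the WT water arrays and -3.07 and -2.74 on the WT ABA arrays. In OE it gave 0.24 and -0.03 in water and -4.30 and -4.11 under ABA. Water arrays of both genotypes lay close together, all ABA arrays lay well below them, and the OE ABA arrays were the lowest. The log2 fold change with ABA was -3.17 ± 0.19 (SE, n = 2 arrays per group) in WT, with an adjusted p of 0.0107 by limma. In OE it was -4.31 ± 0.19, a 19.9-fold fall, with an adjusted p of 0.00351.

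PYL5 was measured by 3 probes. Its brightest probe gave 1.08 and 1.17 in WT water, -1.84 and -1.27 in WT ABA, -1.0 and -1.40 in OE water, and -3.80 and -3.48 in OE ABA. The 4 groups fell into 3 levels, since the WT ABA and OE water arrays overlapped, with WT water above and OE ABA below them. ABA lowered PYL5 by a log2 fold change of -2.68 ± 0.25 in WT (limma adjusted p = 0.018) and of -2.44 ± 0.25 in OE, where the fall was 5.42-fold (limma adjusted p = 0.0131). A second PYL5 probe was called lower in both genotypes too, with log2 fold changes of -2.82 and -2.20. The dimmest PYL5 probe had log2 fold changes of -2.95 and -2.27 and was not called, with limma adjusted p-values of 0.403 and 0.529. Its OE arrays disagreed widely, giving -3.29 and -5.58 in water and -9.08 and -4.33 under ABA.

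PYL6, a receptor reported to bind the jasmonate factor MYC2 in Arabidopsis, stood at -2.30 and -1.80 in WT water and at -7.44 and -6.23 in WT ABA, where 1 of the 2 arrays was well above background. It stood at -3.45 and -3.03 in OE water and at -8.21 and -7.47 in OE ABA, where neither array was. The WT log2 fold change was -4.78 ± 0.46 (limma adjusted p = 0.0197). For OE the group means were -3.24 in water and -7.84 under ABA, and since the lower group was not well above background the fall is given as at least 9.43-fold (limma adjusted p = 0.0126). Such a bound sets the mean of the bright group against, on each array of the dim group, the higher of 2 values, the probe's own and the lowest that any probe well above background had there.

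In subfamily III, only PYL1 was called with ABA, in OE. PYR1, the receptor first found through the synthetic agonist pyrabactin, gave 3.06 and 3.09 in WT water, 2.21 and 2.22 in WT ABA, 3.31 and 2.98 in OE water, and 1.96 and 2.44 in OE ABA. Every ABA array of PYR1 was below every water array. Its log2 fold change was -0.86 ± 0.20 in WT and -0.95 ± 0.20 in OE, under the fold of the call, and limma gave adjusted p-values of 0.132 and 0.0909. Over both genotypes together the change was -0.90 ± 0.14, with an adjusted p of 0.032.

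PYL1, the closest relative of PYR1, gave -0.71 and -0.57 in WT water and -1.15 and -1.07 in WT ABA. In OE it gave -0.54 and -0.32 in water and -1.56 and -1.60 under ABA. The ABA arrays were lower in both genotypes without overlap, and by more in OE. The log2 fold change was -0.47 ± 0.14 in WT (limma adjusted p = 0.187, not called) and -1.14 ± 0.14 in OE (limma adjusted p = 0.0219, called). Their difference of -0.67 ± 0.20 had an adjusted p of 0.303, so a difference in response between genotypes was not called. The call of PYL1 in OE was lost with normexp, without the filter on dim probes (adjusted p = 0.0526), with only the OE arrays fitted (adjusted p = 0.0977 by limma) and in 6 of the 8 fits that left out 1 array.

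PYL2, known for a part in the closing of stomata, was dim. It gave -4.57 and -4.94 in WT water, -4.89 and -6.21 in WT ABA, -4.27 and -4.08 in OE water, and -6.23 and -8.29 in OE ABA, where 1 of the 2 arrays was well above background. The WT groups overlapped and the OE groups did not. The log2 fold change was -0.79 ± 0.73 in WT and -3.09 ± 0.73 in OE, with limma adjusted p-values of 0.639 and 0.111, so neither was called. With normexp background correction the OE value was 0.37.

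None of PYL7, PYL8 and PYL9 of subfamily I was called with ABA. PYL8, which promotes lateral root growth, gave 1.45 and 1.08 in WT water, 0.88 and 0.37 in WT ABA, 0.45 and 0.26 in OE water, and -0.20 and 0.07 in OE ABA. Its ABA arrays lay below the water arrays of the same genotype, with log2 fold changes of -0.65 ± 0.23 in WT and -0.42 ± 0.23 in OE (limma adjusted p = 0.258 and 0.454). PYL9, whose overproduction raises drought resistance, was the receptor with higher means under ABA in both genotypes. It gave -0.43 and -0.27 in WT water, 0.35 and -0.01 in WT ABA, -0.14 and -0.64 in OE water, and -0.06 and 0.54 in OE ABA. The log2 fold changes of PYL9 were 0.52 ± 0.28 and 0.63 ± 0.28, with 95% confidence intervals from -0.16 to 1.19 and from -0.05 to 1.3, and its other probe gave 0.45 and 0.72.

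PYL7 was nearly level in WT, with 1.41 and 1.5 in water and 1.32 and 1.36 under ABA. In OE it gave 0.88 and 0.79 in water and 1.13 and 1.39 under ABA. The ABA arrays were therefore the lower ones in WT and the higher ones in OE, by log2 fold changes of -0.12 ± 0.14 and 0.42 ± 0.14, neither of which was called (limma adjusted p = 0.735 and 0.245). Its other probe gave -0.08 and 0.40, with overlapping groups in WT.

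Counted together, 3 of the 9 tested receptors were called lower with ABA in WT, where 0.253% of all tested probes were called lower. In OE 4 of 9 were called lower, against 0.349% of all probes, and over both genotypes 3 of 9, against 0.604%. No receptor was called higher, against 0.55% of all probes in WT, 1.7% in OE and 1.82% over both genotypes. ABA arrays lay entirely below water arrays for 7 of 9 receptors in each genotype, and 30% of all probes did so in WT and 24.3% in OE. The median log2 fold change of the 9 receptors was -0.79 in WT and -1.14 in OE, beside -0.04 for all tested probes in both genotypes.

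**Figure D2:**
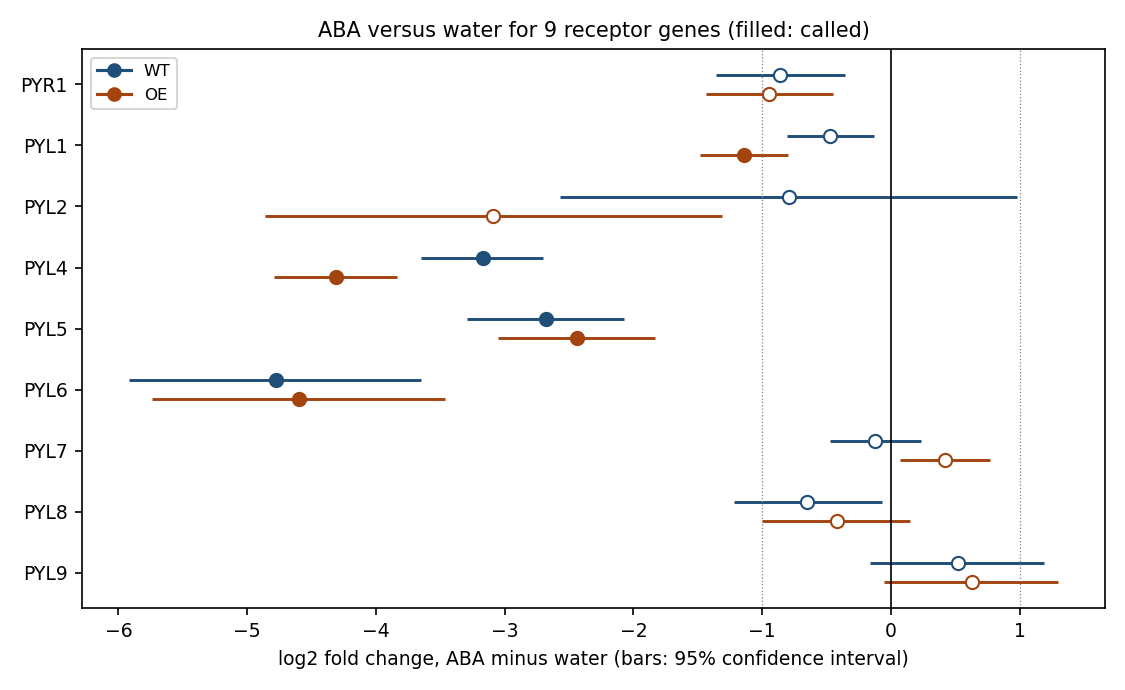
Log2 fold change of 9 receptor genes with ABA (horizontal axis, ABA minus water) in WT and OE, with the 95% confidence interval of the limma fit as bars and dotted lines at a 2-fold change. Filled points were called. PYL4, PYL5 and PYL6 lie between -4.78 and -2.44 in both genotypes, and the PYL6 point of OE rests on ABA signals that were not well above background.

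The number of calls depended on single arrays, for all tested probes as for the receptors. Without any 1 of the 4 arrays of a genotype, fewer receptors were called with ABA in that genotype, and fewer of all tested probes were too. Some calls were also lost without an array of the other genotype. In fits without 1 array, the WT call was lost in 1 of 8 for PYL4, 4 for PYL5 and 6 for PYL6. The OE call was lost in 0 of 8 for PYL4 and in 4 each for PYL5 and PYL6. In such a fit the lone array of a group is assumed to vary like the other groups. The log2 fold changes without 1 array ran from -3.34 to -3.01 for PYL4, -2.97 to -2.40 for PYL5 and -5.39 to -4.18 for PYL6 in WT, and from -4.45 to -4.18, -2.63 to -2.24 and -4.97 to -4.23 in OE. No call was kept when the background was corrected with normexp. There the log2 fold changes of PYL4, PYL5 and PYL6 were -2.89, -2.56 and -2.63 in WT and -2.29, -1.16 and -0.27 in OE. No receptor call was kept in WT when only the WT arrays were fitted (adjusted p of 0.0895, 0.109 and 0.113 by limma). That fit called 0 of all tested probes.

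The response to ABA was then compared between the genotypes by the interaction of genotype and ABA. No receptor was called, and limma called 0% of all tested probes. With unadjusted p-values under 0.05 and the same minimum fold, 2027 probes passed, 6.48% of those tested, and PYL4 was the receptor among them. The fall of PYL4 was larger in OE by -1.14 ± 0.28 on the log2 scale, with a 95% confidence interval from -1.81 to -0.46 and an adjusted p of 0.246. With normexp this difference had the opposite sign, at 0.60. For PYL5 the difference was 0.25 ± 0.35 (95% confidence interval from -0.62 to 1.11), and for PYR1 it was -0.09 ± 0.29 (from -0.79 to 0.62), so that a moderate difference in either direction was within the error for both genes. The methods' t-test has no interaction term and was not run on it.

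Between the genotypes, PYL5 was the receptor with the clearest difference. It was 5.02-fold lower in OE than in WT in water and 4.23-fold lower under ABA, and PYL4 was called under ABA, where it was 2.47-fold lower in OE. No receptor was called higher in OE, against 8.45% of all probes in water and 3.78% under ABA. In water, 1 of 9 receptors was called lower, while 10.6% of all tested probes were called lower. Under ABA, 2 of 9 were called lower, against 6.52% of all probes. In water the share of receptors called lower was close to that of all probes.

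The log2 fold change of PYL5, OE against WT, was -2.33 ± 0.25 in water (limma adjusted p = 0.00368) and -2.08 ± 0.25 under ABA (limma adjusted p = 0.00742). Its second probe gave -2.72 and -2.11 and was called in both, and its dimmest probe gave -1.88 and -1.21 and was not called. As listed above, no OE array of the brightest PYL5 probe reached the level of a WT array of the same treatment.

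PYL4 did not differ in this way in water, where the 2 genotypes overlapped and the log2 fold change was -0.16 ± 0.19 (95% confidence interval from -0.64 to 0.31). Under ABA it was -1.3 ± 0.19 (limma adjusted p = 0.0127). The call under ABA was lost without OE ABA replicate 1 (adjusted p = 0.0642) and without either WT ABA replicate (adjusted p of 0.0504 and 0.0693 by limma), and with normexp the value was 0.30. In water PYL6 was lower on both OE arrays than on both WT arrays, with a difference of -1.19 ± 0.46 (limma adjusted p = 0.1). Under ABA its means were -7.84 in OE and -6.84 in WT, and no fold is given because the OE arrays were not well above background. With normexp the fitted difference under ABA was 1.59, opposite in sign.

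PYL7 and PYL8 of subfamily I were lower in OE in water at an adjusted p under 0.05 but by less than 2-fold, as 17.1% of all tested probes were lower at that p without a minimum fold. PYL7 differed by -0.62 ± 0.14 (limma adjusted p = 0.0242) and PYL8 by -0.91 ± 0.23 (limma adjusted p = 0.033). Under ABA the differences were -0.08 ± 0.14 and -0.69 ± 0.23, with adjusted p-values of 0.729 and 0.0982. PYR1 was level between genotypes, at 0.07 ± 0.20 in water and -0.01 ± 0.20 under ABA, with 95% confidence intervals from -0.42 to 0.57 and from -0.51 to 0.48. PYL9 was likewise close to 0, at -0.04 ± 0.28 and 0.07 ± 0.28. PYL1 differed by 0.21 ± 0.14 in water and -0.47 ± 0.14 under ABA, and PYL2 by 0.58 ± 0.73 and -1.71 ± 0.73, none of them called. The sign of the values of PYR1 and PYL9 changed when single arrays were left out, and with normexp PYL2 was at 1.18 under ABA.

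**Figure D3:**
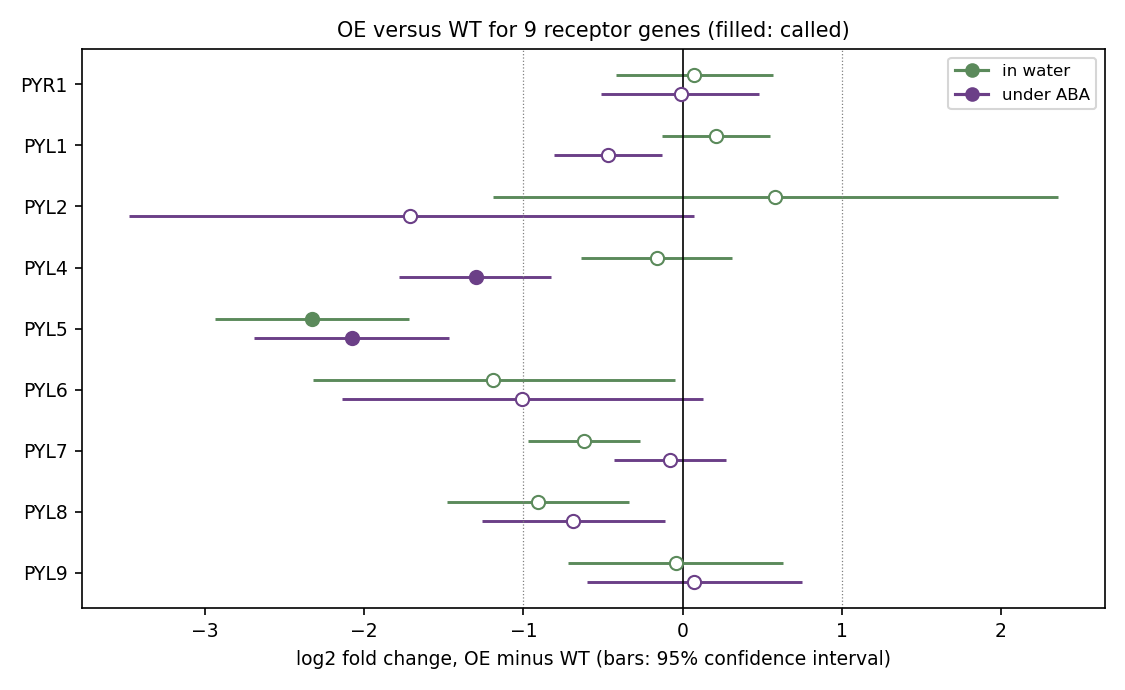
Log2 fold change of 9 receptor genes between genotypes (horizontal axis, OE minus WT) in water and under ABA, with 95% confidence intervals of the limma fit as bars and dotted lines at a 2-fold change. Filled points were called: PYL5 in both treatments and PYL4 under ABA. The PYL6 point under ABA rests on OE signals that were not well above background.

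Marker and clock genes were also compared between the genotypes. The summed level of the flower markers AP3, PI and AG ran from -5.61 to -2.63 on WT arrays and from -2.18 to 0.40 on OE arrays. None of the 3 was well above background on all arrays, and none was called between genotypes in either treatment. The WT water arrays disagreed widely, with -4.05 and -8.75 for AP3 and -3.57 and -8.97 for PI. The summed root markers, carried by PYK10, overlapped between the genotypes, from 1.04 to 3.57 in WT and from 2.49 to 4.27 in OE. CASP1 had lower means in OE than in WT and was not called, with -4.37 against -4.22 in water and -5.94 against -4.50 under ABA. EXPA7 was well above background on 1 array and IRT1 on none. COBL9, a root hair gene among the root markers, was well above background on the 2 OE water arrays alone, with means of -4.77 in OE water, -8.54 in OE ABA and -7.90 in WT water. It was called at least 3.68-fold higher in OE than in WT in water (limma adjusted p = 0.013) and at least 3.27-fold lower with ABA in OE (limma adjusted p = 0.0372). The 3 guard cell markers, well above background on all arrays, summed to between 0.52 and 0.72 in WT water, 0.02 and 0.34 in WT ABA, 0.18 and 0.58 in OE water, and -0.63 and 0.29 in OE ABA, and none was called. The part of root and guard cell transcripts in the receptor changes was not tested. The clock genes CCA1, LHY, TOC1, GI, LUX and ELF4 were called between the genotypes in both treatments, 4 of 6 higher and 2 of 6 lower. LHY, a morning gene, differed by -4.33 ± 0.20 and ELF4, an evening gene, by 4.44 ± 0.25 in water, and by -6.23 ± 0.20 and 6.69 ± 0.25 under ABA. Their part in the differences of PYL4 and PYL5 was not tested. Within OE, where ABA and water shared a slide, TOC1, LUX and ELF4 were called higher with ABA, by 1.27 ± 0.16, 1.22 ± 0.15 and 2.43 ± 0.25 on the log2 scale. The calls of TOC1 and LUX were each lost in 6 of 8 fits without 1 array, and that of ELF4 in 2.

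Several PP2C phosphatases were called higher with ABA. Of the 9 clade A PP2C genes, which encode the phosphatases that the receptors block, 7 were tested, and 5 were called higher in WT and 6 in OE, against 0.55% and 1.7% of all tested probes, with a median log2 fold change of 2.67 and 2.80. None was called lower. Values in WT and OE were 1.72 and 2.27 for ABI1, 2.87 and 2.81 for ABI2, 2.67 and 2.24 for HAB1, 2.23 and 2.80 for PP2CA, and 6.13 and 6.0 for HAI1, each called in both. HAI2 was called in OE, at 5.73 ± 0.70, but not in WT, at 4.36 ± 0.70 (limma adjusted p = 0.0643). HAB2, with 0.80 and 0.84, was not called. AHG1 was not well above background on any array, and HAI3, well above it on 2 arrays, was not tested.

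HAI1, for example, gave -3.06 and -3.89 in WT water and 2.56 and 2.75 in WT ABA, and -5.12 and -3.82 in OE water and 1.73 and 1.33 in OE ABA. The 4 ABA arrays of HAI1 were thus above all 4 water arrays, whereas the 4 ABA arrays of PYL4, PYL5 and PYL6 were below the water arrays of their own genotype.

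Of the 3 SnRK2 kinases, SNRK2.2, SNRK2.3 and SNRK2.6, none was called with ABA, their log2 fold changes lying between -0.81 and 0.75 in WT and between -0.07 and 0.90 in OE. SNRK2.2 was called higher in OE under ABA, by 1.27 ± 0.16. Of the 5 group A bZIP factors, ABF2 was called higher with ABA in both genotypes, at 1.46 and 1.53, as was ABF3, at 2.35 and 3.08. The WT value of ABF3 rests on 1 water array, replicate 2, since its spot on replicate 1 was flagged as an outlier. ABF4 was called in OE, at 1.03, and ABI5 over both genotypes, at 2.95. Between genotypes, ABF1 was called higher in OE under ABA, by 1.41 ± 0.20, and ABF4 lower in OE in water, by -1.24 ± 0.16.

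Of the 10 ABA-induced output genes, 4 were called higher in WT and 7 in OE, against the same 0.55% and 1.7% of all probes, none was called lower, and the median log2 fold change was 1.92 and 3.62. HB7 and HB12, homeodomain factors induced by ABA, rose by 2.80 and 2.78 in WT and by 3.05 and 3.41 in OE. RD29B rose at least 11.9-fold in WT, with means of -8.32 in water and -3.08 under ABA, and at least 3.74-fold in OE, with means of -8.57 and -4.58. TSPO rose by 5.70 ± 0.45 in WT and at least 133-fold in OE, from a mean of -8.21 to 0.57. LTI30, RD26 and HVA22D were called in OE, at 5.15, 3.82 and 2.13, and RD29A and RAB18 over both genotypes, at 3.61 and 2.27. Calls over both genotypes were lost without 1 array in 6 of 8 fits for RD29A and ABI5 and in 7 of 8 for RAB18 and CYP707A1. In water, 5 of the 10 genes were called lower in OE than in WT, against 10.6% of all tested probes, among them RD26 by -3.10 ± 0.32 and LTI30 by -3.74 ± 0.46. Of the 34 tested genes in the 5 lists of the pathway, 12 were called with ABA in WT and 16 in OE, against 0.803% and 2.04% of all tested probes. Leaving out any 1 of the 8 arrays lowered the number called in WT, for these genes as for all tested probes. In OE the number for these genes fell or rose with the array left out. It fell without OE water replicate 2, where fewer of all tested probes were called too. In fits without 1 array the log2 fold changes lay in WT between 2.78 and 2.96 for ABI2, 2.5 and 2.83 for HAB1, and 2.57 and 3.04 for HB7. The WT calls of these genes were lost in 1, 1 and 2 of 8 such fits. Other WT calls were lost more often, in 6 of 8 for ABI1 and PP2CA, 7 for ABF2 and 5 for RD29B. For ABF3 it was 6 of 7. The OE calls of HAI2, ABF4 and HVA22D were each lost in 6 of 8.

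Among 9 genes of ABA synthesis and breakdown, CYP707A2, which encodes an ABA 8'-hydroxylase, was called higher with ABA in WT, at 3.06 ± 0.40, and CYP707A1 over both genotypes, at 2.36 ± 0.40. The WT call of CYP707A2 was lost without 1 array in 6 of 8 fits. NCED3, a main enzyme of stress-induced ABA synthesis, was called in neither ABA comparison and was higher in OE under ABA, by 1.55 ± 0.32. ABA1 was lower in OE under ABA, by -1.22 ± 0.22, and CYP707A3 lower in OE in water, by -1.98 ± 0.34. The remaining receptors of the family, PYL10 to PYL13, had probes but none was tested, and PYL13 alone was well above background, on 1 array.

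**Figure D4:**
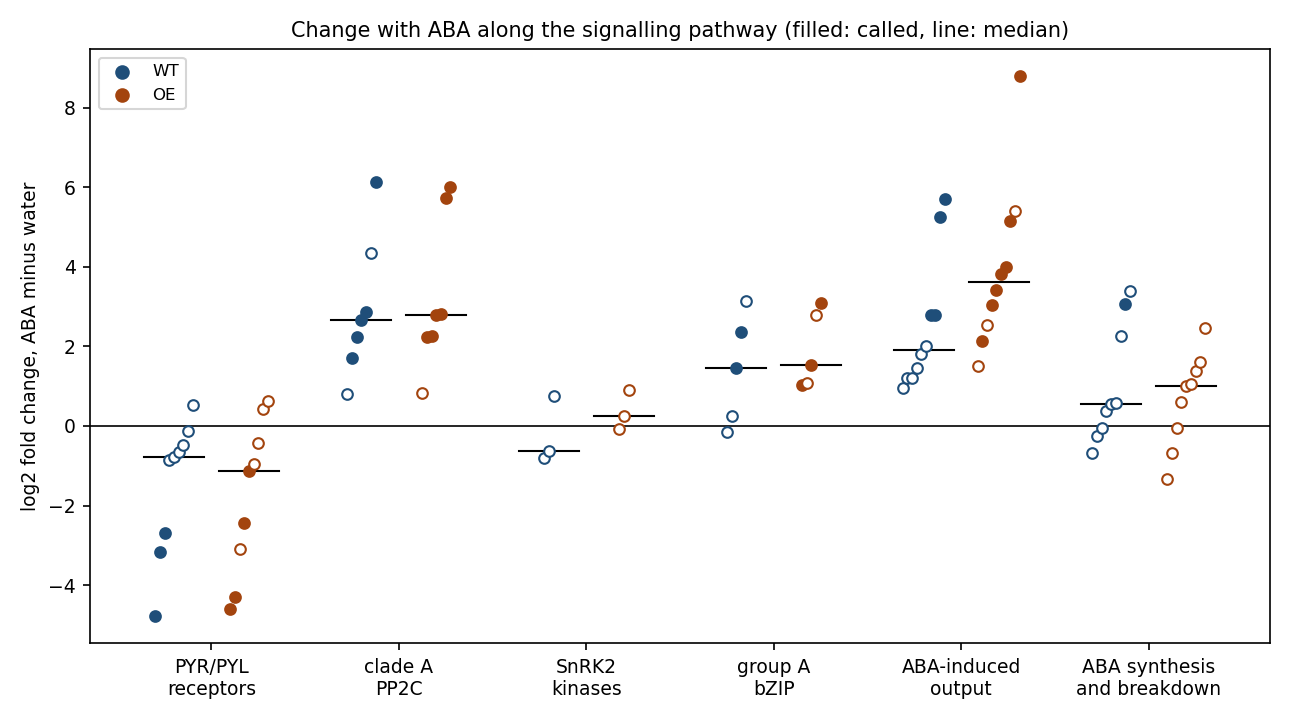
Log2 fold change with ABA (vertical axis, ABA minus water) of each tested gene of the receptors and of 5 lists of ABA pathway genes (horizontal axis), with WT on the left and OE on the right of each pair and a line at the median. Filled points were called. The receptor medians are -0.79 and -1.14 and the PP2C medians 2.67 and 2.80, and fitted changes of TSPO in OE and of RD29B rest on water signals that were not well above background.

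PYL4 was the receptor with the largest change over both genotypes among those well above background on all arrays, at -3.74 ± 0.14 (limma adjusted p = 0.00115). The 3 genes whose values, centred on their own mean, came nearest to those of PYL4 over the 8 arrays, among 23706 probes well above background throughout, were AT1G06830, EXPA1 and AT4G21870, with root mean square differences of 0.79, 0.88 and 0.95 on the log2 scale. EXPA1 encodes an expansin, a protein that loosens the cell wall. Their log2 fold changes over both genotypes were -2.38 ± 0.14, -2.29 ± 0.34 and -2.53 ± 0.22, and since likeness to PYL4 on these arrays chose them, lower values with ABA follow from the choice.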

How the data were processed

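Total RNA of whole seedlings was hybridised to Agilent Arabidopsis oligonucleotide arrays of 1 colour (Cy3). The deposited scanner files hold spot intensity values that the authors extracted with Agilent Feature Extraction 10.7.3.1, background-subtracted and with flags for outlier, saturated and well-above-background spots. The authors also deposited a table of normalized log2 values of the same arrays. Each column of it correlated with the log2 processed signals of its array (r from 0.9995 to 0.9999), all columns had a median of 7.587 or 7.588, and it served as an alternative.

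The main values were log2 processed signals minus the 75th percentile of each array. Outlier spots were left out (6 to 24 on 7 arrays and 1148 on WT water replicate 1, none of them a receptor probe), spots of 1 probe were averaged, and 12336 of 43603 gene probes that were not well above background on both arrays of any group were not tested. In R 4.3.3, limma 3.58.1 (lmFit, eBayes) fitted 4 group means to 8 arrays (4 residual and 1.99 prior degrees of freedom) for 6 contrasts, with Benjamini-Hochberg adjustment over 31267 probes. The fit was tested on simulated data. With 2 arrays per group, an exact permutation test cannot go below p = 0.333 and was not used. The number of arrays limits the precision.

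Transcript accessions of 78.9% of the gene probes matched a locus tag in RefSeq (assembly TAIR10.1), from which symbols were also taken, so that PYL8 and PYL9 are listed there as RCAR3 and RCAR1. Coordinates are not printed, since the array annotation names TAIR10. A gene was read from its probe with the highest mean signal. Named genes were all 10 receptors, pathway genes called in an ABA contrast, at most 4 more per other contrast, and the 3 genes most like the lead receptor. The members and lists were chosen with earlier results of these data known. Alternatives covered normalization, background correction (normexp on the median signal, since the files used hold no mean signal), dim probes, arrays fitted, blocks, thresholds, the methods' t-test and arrays left out. Promoter motifs were not analysed here.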

Additional observations from a re-analysis of the deposited data

Results flagged for a closer look

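PYL7 had a lower mean with ABA in WT and a higher one in OE. The WT change was small, at -0.12 ± 0.14 (95% confidence interval from -0.47 to 0.23). Both ABA arrays lay below both water arrays in WT, as for 30% of all probes, and both lay above them in OE, as for 22.3%. The difference between the responses was 0.54 ± 0.20 on the log2 scale (95% confidence interval from 0.05 to 1.03), with an adjusted p of 0.394 in the limma interaction test, so it was not called. A second PYL7 probe gave 0.48 ± 0.20, with overlapping arrays in WT.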

How the results depend on the processing

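Receptors called numbered 3 for ABA in WT, 4 for ABA in OE, 3 for ABA over both genotypes, 1 for OE against WT in water, 2 for OE against WT under ABA, and 0 for the interaction. With normexp they were 0 in every contrast, where all probes called with ABA in WT were 22 higher and 6 lower in place of 172 and 79. The methods' t-test with Benjamini-Hochberg adjusted p-values called 0 receptors, 0 pathway genes and 0 of all tested probes in its 4 contrasts of a pair of groups. At an unadjusted p it called 2 receptors with ABA in WT (PYL4 and PYL6, not PYL5) and 3 in OE (PYL4, PYL5 and PYL6, not PYL1), and 1 and 2 between genotypes. Of all probes it then called 260 higher and 160 lower with ABA in WT, of 30131, and 573 and 136 in OE, of 31247. Between genotypes it called 889 and 1402 of 30133 in water, and 566 and 1003 of 31245 under ABA. Fits of only the arrays compared called 0 receptors, 0 pathway genes and 0 of all tested probes for ABA in WT. OE against WT in water gave 2 receptors with the array median, 2 at an unadjusted p and 3 with no minimum fold. ABA over both genotypes gave 5 with no minimum fold, and the interaction 1 at an unadjusted p. Leaving out any 1 array of a genotype lowered the number of receptors called with ABA in that genotype, as it did for all tested probes. Some fits without an array of the other genotype lost receptor calls too.

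Alternatives for pathway genes were chosen after seeing the data. Of 34 tested, 12 were called with ABA in WT and 16 in OE, against 0.803% and 2.04% of all tested probes. Between genotypes, 7 were called in water and 4 under ABA, close to the shares of all tested probes, 19% and 10.3%. With no minimum fold, 31.1% of all tested probes were called between genotypes in water and 15.9% under ABA. ABA in WT gave 6 with normexp, 7 with no filter on dim probes, 20 at an unadjusted p and 0 to 10 without 1 array. ABA in OE gave 25 at an unadjusted p and 3 to 19 without 1 array. OE against WT in water gave 4 with normexp, 11 with no minimum fold, 1 by the methods' t-test at an unadjusted p and 6 to 11 without 1 array. Under ABA it gave 0, 8, 2 and 1 to 5 in the same order. The interaction gave 8 at an unadjusted p.

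With the replicate block, OE against WT in water gave 2 receptors and ABA in WT 7 pathway genes, and other receptor counts did not change. Same-numbered arrays did not deviate together (r from -0.18 to 0.11), so the numbers are taken as names only.

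Signs turned with normexp for PYL2 with ABA in OE (0.37), PYL9 between genotypes in water (0.08), PYL2 (1.18), PYL4 (0.30) and PYL6 (1.59) between genotypes under ABA, and the interactions of PYL2 (0.99) and PYL4 (0.60). Normexp also moved the median of all tested probes from -0.04 to 0.23 for ABA in OE, from 0.02 to 0.35 between genotypes under ABA and from 0.03 to 0.33 for the interaction, so the 0.30 of PYL4 lay below the median of all probes. The cause was not tested. The array median moved the median of all probes to -0.14 between genotypes in water, where PYR1 turned (-0.06), as it did in the interaction (0.00) and with quantile normalization between genotypes under ABA (0.00). Without 1 array, values that crossed 0 ran in water from -0.09 to 0.24 for PYR1 and from -0.29 to 0.21 for PYL9, and under ABA from -0.25 to 0.22 for PYR1, -0.21 to 0.05 for PYL7 and -0.22 to 0.37 for PYL9. Interactions ran from -0.32 to 0.15 for PYR1, -0.04 to 0.53 for PYL5, -0.42 to 0.78 for PYL6, -0.03 to 0.48 for PYL8 and -0.18 to 0.41 for PYL9. Of 998 alternative values of single receptors, 54 lost a call with the sign kept, 7 gained a call and 28 turned in sign. Among the last, PYL4 between genotypes under ABA with normexp lost its call too. Signals near background limit PYL2, PYL3 and PYL6.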
